A study of Mus musculus with 24 samples.

Results

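Retained-intron transcripts on the surface of murine blood cells are described here: transcripts that the gene annotation types as retained_intron because they contain intron sequence of a gene whose other transcripts splice it out. A transcript was a member if it was above 10 transcripts per 1000000 (TPM, corrected for transcript length) in at least 1 of the 12 surface libraries of hematopoietic stem and progenitor cells (HSPCs), natural killer (NK) cells, B cells and T cells, and was also listed in the monocyte table. The rule was met by 51 transcripts of 46 genes, of the 19675 retained_intron transcripts listed for all 5 cell types. Each member was set beside its coding partner, the summed TPM of the protein_coding transcripts of the same gene, which exists for 48 members of 43 genes. Snhg1-213, Gm43305-201 and H2-Q5-203 have none. The members were chosen by their surface TPM in those 12 libraries, so their levels are a description with no test, and differences between the 12 libraries used by the rule and the 3 monocyte libraries are partly set by that choice.

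Splicing removes introns from a primary transcript in the nucleus, and a transcript that keeps an intron usually stays in the nucleus or is degraded once it meets the ribosome. Introns of some genes, many of them for ribosomal proteins and translation factors, also carry small nucleolar RNAs (snoRNAs), which are cut out of the intron and guide the chemical modification of ribosomal RNA.

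Surface RNA was measured in 15 libraries of cells from C57BL/6 mice, all labelled wild type, with 3 libraries each of B cells, T cells and NK cells from spleen and of HSPCs and monocytes from bone marrow. In the assay, called AMOUR, intact cells are fixed and bound to lectin beads, and RNA reachable from outside is amplified in place with T7 RNA polymerase from an annealed random primer. T cells were isolated with a kit for CD8 T cells and HSPCs by depletion of lineage-positive cells. The age and sex of the mice are not given in the sources used here. The paper calls the 3 libraries of a cell type independent biological replicates. Whether they came from separate animals is not given either, so p-values measure only the spread between these libraries.

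Marker transcripts were highest in the matching cell type for monocytes and for the 3 cell types from spleen. The summed level of 5 HSPC markers was 55.9 to 121 TPM in HSPCs but 233 to 373 TPM in monocytes, so this list did not separate HSPCs from monocytes. Monocyte libraries also held 1361 to 1469 TPM of 5 neutrophil markers, against 10.7 to 52.5 TPM in HSPCs and at most 33.7 TPM elsewhere, and the 5 B cell markers summed to 8.03 to 12.8 TPM in NK cells against 165 to 276 TPM in B cells. In bulk samples, fewer cells of a type and less RNA per cell cannot be told apart. Monocytes were sequenced on another platform than the other 4 cell types, so that platform and monocytes cannot be told apart. TPM are set library by library, and ribosomal RNA and 3 abundant transcripts of predicted genes, Gm55936-201, Gm55094-201 and Gm55118-201, left only 9.00% to 13.1% of TPM for other transcripts in HSPCs, against 25.2% to 49.6% in the other 12 libraries. Levels in HSPCs are therefore also given after rescaling the remaining transcripts to 1000000, called rescaled TPM, whereas a ratio within a library does not depend on this scale.

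The intron sequence of the members that were searched begins or ends at ordinary splice sites. In all 46 of these, of the 51 members, an exon of the transcript runs across a splice site that coding transcripts of the same gene use. All 32 donor sites crossed in this way begin with GT and all 25 acceptor sites end with AG. Of these, 21 members cross donor sites only, 14 cross acceptor sites only and 11 cross both kinds. The windows below show members on which the results turn, from the GENCODE M21 transcripts (GRCm38), with 10 exon bases in lower case and 20 intron bases in capitals, 5′ to 3′ on the strand of the gene.
Rplp2-206, donor: gctcaacaagGTAGCATGCTGCTTGCTTGG
Coro1a-204, donor: cctaggcaagGTGAGCTTCCGGAACCTCAA
Rpl19-203, donor: gccaactcccGTGAGTATGATCTGTCACCC
Rps7-204, donor: cgcagccaagGTGAGCGGGGACCCCGGAGT
H2-Ob-204, donor: gagagaaatgGTGGGTGACAATAAGATCTA
Ppia-203, donor: catgtgccagGTATTTATTAAATTGAAATT
Ttyh1-210, donor: tctgcacaagGTAAGCTCTGGGTGTTTGCC
Ms4a4b-206, donor: aatcaccaagGTATGTATTCACTCTGCTGG
Rpsa-202, acceptor: AGTTCCGTTTGCTGGCCTAGgtatctacat
Ly6e-207, acceptor: CATCCTCACTTTCCATGCAGggaatgtcaa
Nfkbia-202, acceptor: GTTTCCCTGTCATCCCTCAGgttcctgcac
Prtn3-204, acceptor: TCCCACAACCTTCACTGCAGctcctggcag

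Of the members shown, Rplp2-206 lies at chr7:141447631-141448616 on the plus strand, Coro1a-204 at chr7:126702832-126704753 on the minus strand and Rpl19-203 at chr11:98026957-98028147 on the plus strand. Rpsa-202 lies at chr9:120128806-120130374 on the plus strand, Ly6e-207 at chr15:74955668-74959331 on the plus strand and Ppia-203 at chr11:6415868-6418437 on the plus strand. Ttyh1-210 lies at chr7:4131137-4132034 on the plus strand. Members are short, with a median of 639 bases (347 to 4901) against 895 bases for all retained_intron transcripts. The part of a member outside the coding exons of its gene was 4.38% to 88.0% of its length, with a median of 31.7% over 48 members, and 12 of the 48 contain a whole intron of a coding transcript. Much of a member's sequence is thus shared with its coding partner, and the estimator used by the authors divides reads from shared sequence between both, so a member and its partner are not measured independently.

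Some members hold an entire annotated snoRNA gene in an exon. The snoRNA sequences of Rpl4-203, Eif4a2-219 and Snhg1-213 are printed because these 3 members were also higher in T cells than in B cells. In capitals are TGATG within the first 20 bases and CTGA within the last 20 bases, the core letters of the C and D boxes, or ACA within the last 8 bases, searched on the strand of the gene only. Of the 1507 snoRNA genes in the same annotation, 25.3% hold TGATG, 33.9% hold CTGA and 46.8% hold ACA in these windows.
Snord16a in Rpl4-203, chr9:64175423-64175521, plus strand: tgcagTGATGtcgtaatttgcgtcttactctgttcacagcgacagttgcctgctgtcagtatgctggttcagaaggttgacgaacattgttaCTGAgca
Gm26447 in Eif4a2-219, chr16:23111301-23111429, plus strand: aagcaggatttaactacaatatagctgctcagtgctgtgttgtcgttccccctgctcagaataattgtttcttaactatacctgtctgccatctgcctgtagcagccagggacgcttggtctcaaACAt
Gm22744 in Snhg1-213, chr19:8725092-8725156, plus strand: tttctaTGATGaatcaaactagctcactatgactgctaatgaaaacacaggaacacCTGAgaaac
Snord22 in Snhg1-213, chr19:8725866-8725991, plus strand: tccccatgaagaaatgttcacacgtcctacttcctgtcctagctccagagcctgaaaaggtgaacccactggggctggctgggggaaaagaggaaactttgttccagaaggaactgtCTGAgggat

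In total, 7 of the 51 members share at least 1 base with a small RNA gene, in each case a snoRNA gene. For small RNA genes as a whole the share was 1.60% of all 19557 retained_intron transcripts that could be placed on the annotation. Rpl27a-204 contains part of Snora3, and Rpsa-202 and Rpsa-203 contain parts of Gm24044. The exon maps of 7 members show where these genes lie.

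**Figure D1:**
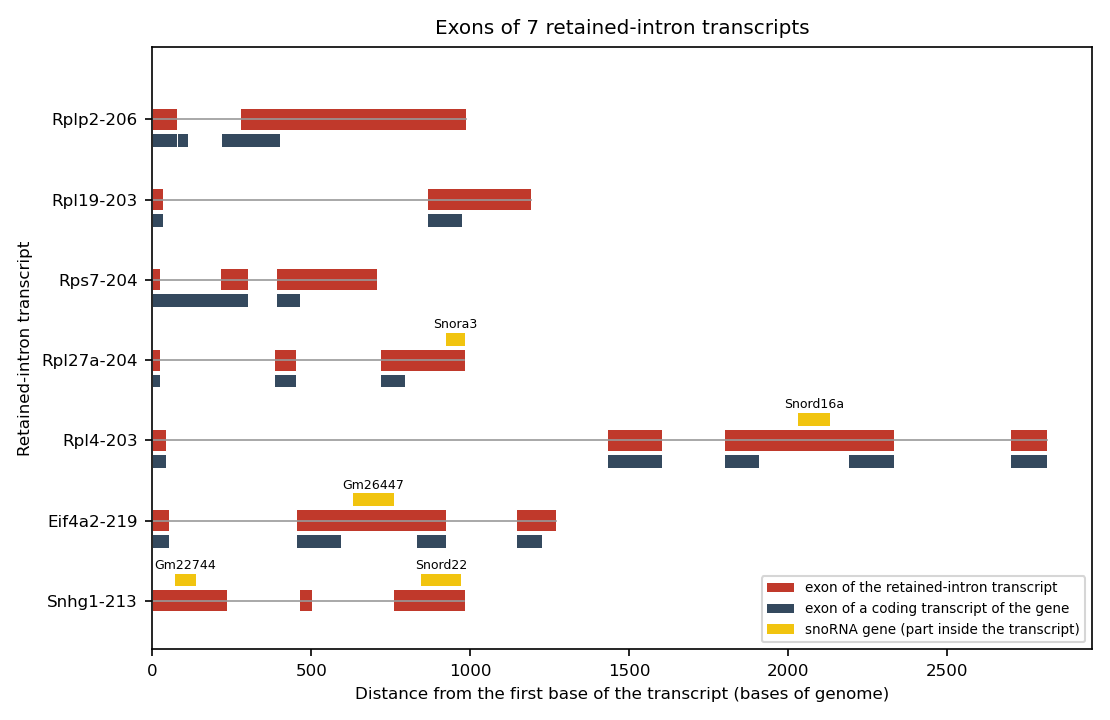
Exon maps of 7 members, with distance along the gene in bases on the horizontal axis. Red boxes are exons of the retained-intron transcript, dark boxes are exons of coding transcripts of the gene and yellow boxes are snoRNA genes. Rplp2-206, Rpl19-203 and Rps7-204 run out of a coding exon into the intron, and the snoRNA genes of Rpl4-203, Eif4a2-219 and Snhg1-213 lie whole inside a red box.

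The 51 members together reached 1178 ± 55.7 TPM (SD, n = 3) in monocytes, 923 ± 144 TPM in B cells, 669 ± 132 TPM in NK cells, 628 ± 161 TPM in T cells and 258 ± 55.1 TPM in HSPCs. In rescaled TPM, B cells had the highest sum, 3539 ± 486, and HSPCs (2338 ± 62.3) were close to monocytes (2414 ± 147), so the low position of HSPCs depended on the scale. Members held 24.5% ± 3.38 of all retained_intron TPM in B cells and 25.8% ± 6.28 in T cells, but 6.26% ± 0.340 in monocytes, where between 179 and 210 retained_intron transcripts per library were above 10 TPM.

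B cells contributed most members, with 40 above 10 TPM in at least 1 B cell library, 20 of which were above it in no other cell type of the rule. The corresponding numbers were 28 in NK cells, 16 in T cells and 7 in HSPCs. Ppia-203 and Ttyh1-210 were above 10 TPM in all 12 libraries, whereas 13 members passed in 1 library only. The mean was highest in B cells for 21 members, in monocytes for 17, in NK cells for 7, in T cells for 6 and in HSPCs for 0. In rescaled TPM the numbers were 22, 10, 6, 6 and 7. The 3 libraries of B cells lay above the other 12 for 10 members (0.971% of all retained_intron transcripts did so), those of T cells for 4 (0.335%), those of monocytes for 13 (25.9%) and those of HSPCs (0.274%) and NK cells (0.762%) for 0. The 3 libraries lay below the other 12 for 8 members in HSPCs (1.37%), 7 in T cells (0.9%), 2 in B cells (0.554%) and 0 in NK cells (0.0152%) and monocytes (0.9%). The counts of libraries above or below the other 12 are in deposited TPM. Whether those of HSPCs depend on the scale was not tested. These counts reuse the levels that chose the members. Those for monocytes do so through the 12 libraries with which monocytes are compared. Just inside the threshold were Hsp90aa1-205 at 10.1 TPM, Cic-209 at 10.1 TPM and H2-Ab1-204 at 10.4 TPM in their highest library of the 12, and just outside it Hspa5-205 at 9.91 TPM, Dynll1-204 at 9.63 TPM and Chd4-208 at 9.57 TPM.

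**Figure D2:**
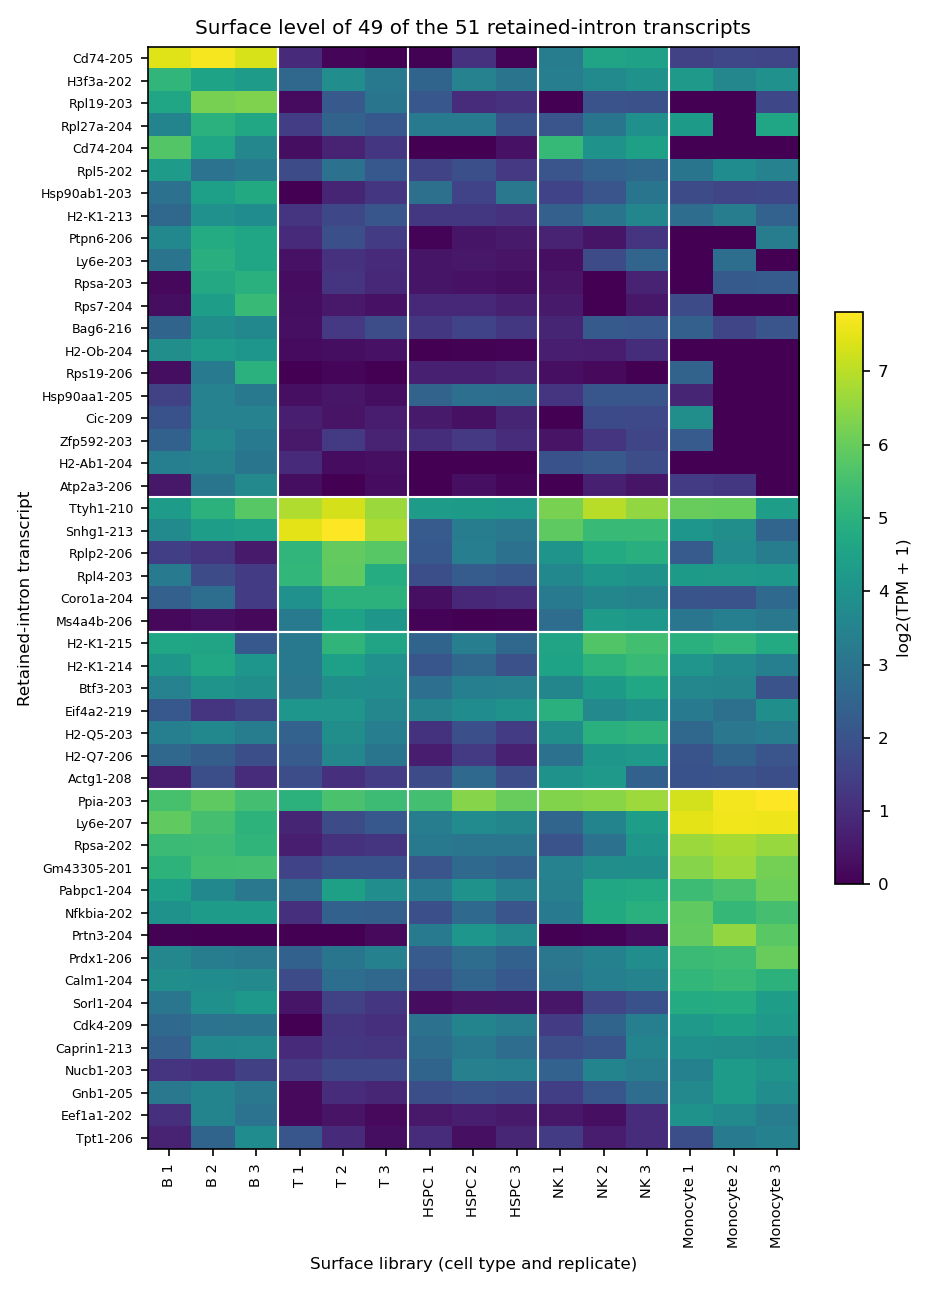
Heat map of log2(TPM + 1) for 49 of the 51 members (rows, ordered by the cell type with the highest mean) in the 15 surface libraries (columns). A block of members is high in B cells and low in T cells and HSPCs, and Ppia-203 and Ttyh1-210 are above 10 TPM in all 15 libraries.

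Cd74, H2-Ob and H2-Ab1, set side by side after their values were seen, gave 4 members with their highest summed level in B cells, followed by NK cells. Cd74 encodes the invariant chain that guides MHC class II molecules to the endosome. Cd74-205 had 171, 209.8 and 162 TPM in the 3 B cell libraries and 8.86, 22.7 and 21.03 TPM in those of NK cells, against at most 2.18 TPM in the other 9 libraries. The B cell libraries lay above all others. Cd74-204 was at 52.3, 23.4 and 11.2 TPM in B cells and 36.5, 14.7 and 20.6 TPM in NK cells, so that both cell types overlapped, and was listed at 0 in all 3 monocyte libraries. H2-Ob encodes the beta chain of H2-O, which tunes peptide loading of MHC class II. H2-Ob-204 had 13.6, 18.5 and 16.1 TPM in B cells and at most 1.02 TPM elsewhere. H2-Ab1-204, from an MHC class II beta chain gene, had 9.33, 10.4 and 7.20 TPM in B cells and 2.91, 3.52 and 2.56 TPM in NK cells.

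The 4 members of this group summed to 235 ± 34.2 TPM in B cells, 45.2 ± 3.66 TPM in NK cells and at most 2.04 ± 0.170 TPM in monocytes, T cells and HSPCs. Set beside the coding partners, the retained share of Cd74-205, its TPM as a percentage of itself plus the coding sum, was 21.7% ± 3.41 in B cells and 16.1% ± 4.62 in NK cells. Coding transcripts of Cd74 summed to 786, 646 and 555 TPM in B cells and 72.2, 92.1 and 97.8 TPM in NK cells. In NK cells, the B cell markers summed to 8.03 to 12.8 TPM beside these values, and their part in the result was not tested. For H2-Ob the member exceeded its partner in B cells, 16.1 ± 2.44 TPM against 6.02 ± 2.59 TPM. Ptpn6-206, from the gene of a phosphatase that dampens receptor signals, had 11.5, 26.7 and 22.9 TPM in B cells, and its highest other value was 8.88 TPM, in 1 monocyte library. Ptpn6-206 and H2-Ab1-204 are named after their values were seen.

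Ribosomal protein genes supplied 10 members, of which several were high in B cells and low in all other cell types. Rpl19-203 had 23.5, 72.3 and 78.2 TPM in B cells and at most 7.13 TPM in the other 12 libraries. Its coding sum, in contrast, was 121, 81.6 and 74.4 TPM in B cells and 183, 151 and 171 TPM in monocytes. In the monocyte libraries, where coding RNA of this large-subunit gene was highest, the retained form was listed at 0, 0 and 2.21 TPM. Rps7-204 had 0.219, 19.2 and 38.0 TPM in B cells, Rps19-206 0.224, 8.41 and 30.9 TPM and Rpsa-203 0.135, 25.02 and 29.8 TPM, and outside B cells these small-subunit members stayed at or below 2.45, 4.57 and 3.84 TPM. In each of them B cell replicate 1 lay in the range of the other cell types, and only replicates 2 and 3 were high. Rpl5-202, from a large-subunit gene, had its highest B cell value in replicate 1, with 18.8, 6.81 and 8.52 TPM in B cells and 7.26 to 12.8 TPM in monocytes.

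B cell replicate 1 stood apart in this way for 5 members, which had under 10% of the mean of the other 2 B cell libraries there. Besides Rps7-204, Rps19-206 and Rpsa-203 these were Tpt1-206, from a growth-related gene whose mRNA is controlled at translation, with 0.662, 4.78 and 12.8 TPM, and Atp2a3-206, from the gene of a calcium pump of the endoplasmic reticulum, with 0.423, 7.16 and 11.8 TPM. Atp2a3-206 is named after its values were seen. The median retained share over the 48 members with a partner was 36.2%, 45.5% and 58.0% in B cell replicates 1, 2 and 3, and without replicate 1 the cell type median moved from 43.1% to 47.9%. With it 21 members had their highest mean in B cells and without it 20, of which 19 were among the 21. In T cells, HSPCs and NK cells, too, replicate 1 was the lowest of its 3 libraries for 37, 34 and 37 of the 51 members. The sum over all 19675 retained_intron transcripts was lowest in replicate 1 there as well. It was 1571 TPM against 3531 and 2582 TPM in T cells, 1642 against 2258 and 2018 TPM in HSPCs and 2818 against 4580 and 5209 TPM in NK cells. No share of all retained_intron transcripts is given for these counts or for the 5 members above. Markers of erythroid cells moved with some of these libraries, all 5 being above 0. They summed to 15.7 TPM in B cell replicate 1 against 0.915 and 1.85 TPM in the other 2, to 8.38 TPM in T cell replicate 1 against 1.72 and 2.53 TPM, and to 64.4 TPM in NK cell replicate 1 against 9.84 and 23.6 TPM. In HSPCs replicate 1 was the lowest, at 18.3 TPM against 34.6 and 40.2 TPM, and monocytes had 25.3 to 35.7 TPM. The part of these markers in the results was not tested.

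**Figure D3:**
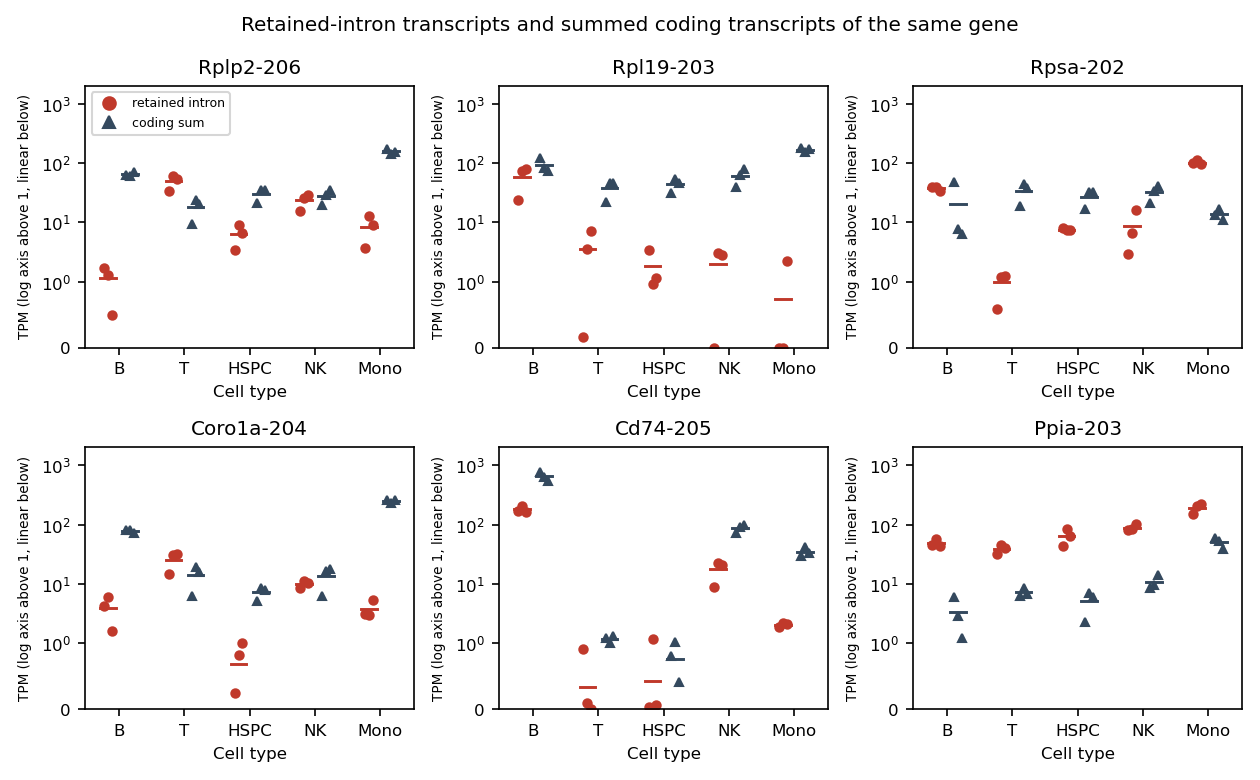
Levels of 6 members (circles) and their coding partners (triangles) in each library of the 5 cell types, in TPM on an axis that is logarithmic above 1 and linear below, with bars at the mean of 3 libraries. Rplp2-206 and Coro1a-204 exceed their partners in T cells and lie far below them in monocytes, whereas Rpsa-202 exceeds its partner in monocytes and lies far below it in T cells.

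Each of the 3 members printed above with a whole snoRNA gene was higher in all T cell libraries than in any B cell library. The order of the other cell types differed between them, and Snhg1-213 had the largest part of their summed level in T cells. Snhg1 is a non-coding snoRNA host gene. Snhg1-213 had 178, 221 and 113 TPM in T cells, 57.3, 38.3 and 37.1 TPM in NK cells and 12.04, 19.6 and 21.2 TPM in B cells. HSPCs (3.78 to 8.82 TPM) and monocytes (4.86 to 16.2 TPM) were low, and the T cell libraries lay above the other 12. Rpl4-203, from a large-subunit gene, had 34.9, 59.0 and 27.8 TPM in T cells, with 11.5 to 16.7 TPM in NK cells and 16.9 to 18.3 TPM in monocytes. Its T cell libraries also lay above all others. Eif4a2 encodes an RNA helicase of translation initiation. Eif4a2-219 had 16.1, 15.8 and 11.2 TPM in T cells, 29.9, 11.7 and 14.8 TPM in NK cells and 10.3, 12.9 and 15.1 TPM in HSPCs, which overlapped, and 1.31 to 3.44 TPM in B cells. In rescaled TPM Eif4a2-219 was highest in HSPCs.

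These 3 members summed to 226 ± 72.2 TPM in T cells, 77.4 ± 18.4 TPM in NK cells, 38.6 ± 3.78 TPM in monocytes, 23.9 ± 0.702 TPM in B cells and 22.8 ± 5.23 TPM in HSPCs. In rescaled TPM, their sums were 207 ± 28.2 in HSPCs, 559 ± 134 in T cells, 231 ± 47.4 in NK cells, 79.0 ± 6.74 in monocytes and 92.1 ± 6.11 in B cells, so the last place of HSPCs depended on the scale. The tables also list the snoRNAs printed above, except Snord16a, as transcripts of their own. Snord22, which lies in Snhg1-213, had 2147 ± 572 TPM in T cells, 998 ± 601 TPM in B cells, 537 ± 59.5 TPM in monocytes, 483 ± 45.0 TPM in NK cells and 79.8 ± 5.79 TPM in HSPCs. Gm26447, which lies in Eif4a2-219, had 147 ± 42.0 TPM in NK cells, 89.7 ± 22.5 TPM in T cells, 29.4 ± 18.6 TPM in monocytes and under 10 TPM on average in B cells and HSPCs. The sequence of such a snoRNA is identical in its own entry and in the member, so reads of it can be assigned to either, and how much of the level of a member comes from the snoRNA part was not tested. Gm22744, the other snoRNA of Snhg1-213, was listed at 0 in B cells, T cells and NK cells and at 232 ± 95.1 TPM in monocytes.

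Other members high in T cells come from genes without a whole snoRNA in the member. Rplp2 encodes an acidic protein of the ribosomal stalk. Rplp2-206 had 34.5, 60.1 and 54.1 TPM in T cells, 15.5, 26.2 and 29.2 TPM in NK cells, 3.49 to 12.8 TPM in HSPCs and monocytes and 1.71, 1.28 and 0.492 TPM in B cells. T cells lay above and B cells below all other libraries. The coding sum of Rplp2 had another order, with 176, 144 and 153 TPM in monocytes, 63.7, 59.7 and 70.4 TPM in B cells and 9.35, 23.7 and 20.6 TPM in T cells. Coro1a encodes coronin, an actin regulator of leukocytes that T cells need to survive and migrate. Coro1a-204 had 14.5, 31.3 and 31.5 TPM in T cells and 8.47, 11.1 and 10.3 TPM in NK cells, and at most 6.03 TPM in the other cell types. Its coding sum was 6.21, 19.5 and 15.9 TPM in T cells and 261, 232 and 257 TPM in monocytes. Ms4a4b encodes a membrane protein of T cells and NK cells. Ms4a4b-206 had 8.52, 21.9 and 16.4 TPM in T cells, 5.91, 18.7 and 17.1 TPM in NK cells, 7.31, 9.35 and 7.80 TPM in monocytes and at most 0.244 TPM in B cells and HSPCs, and T cells and NK cells overlapped. Ttyh1-210, from the gene of a chloride channel of the tweety family, had 116, 156 and 98.7 TPM in T cells, 74.0, 125 and 91.8 TPM in NK cells, 62.8, 61.1 and 19.6 TPM in monocytes, 18.7, 31.2 and 54.1 TPM in B cells and 18.6, 18.1 and 16.8 TPM in HSPCs. Its coding sum was close to 0 in every library, and the retained share was at least 99.6% on average in each cell type.

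MHC class I genes, whose products show peptides on the cell surface and which were grouped after their values were seen, gave 5 members with their highest sum in NK cells, 115 ± 40.2 TPM, against 60.3 ± 16.4 TPM in B cells, 59.98 ± 7.64 TPM in monocytes, 54.5 ± 28.1 TPM in T cells and 14.2 ± 5.16 TPM in HSPCs. In rescaled TPM the sum was 348 ± 128 in NK cells, 127 ± 25.2 in HSPCs, 138 ± 68.3 in T cells, 122.9 ± 16.4 in monocytes and 230.3 ± 53.4 in B cells, with HSPCs, monocytes and T cells within their spread. H2-K1-215 had 22.5, 50.7 and 42.7 TPM in NK cells, 7.85, 33.9 and 22.8 TPM in T cells and 30.4, 34.0 and 26.1 TPM in monocytes, which overlapped. H2-K1-214 had 22.2, 31.8 and 37.5 TPM in NK cells and 16.4, 24.3 and 16.3 TPM in B cells. H2-K1-213 had another order, with 5.25, 14.6 and 12.96 TPM in B cells and 4.21, 7.10 and 11.1 TPM in NK cells. H2-Q5-203 had 13.5, 29.8 and 32.7 TPM in NK cells, and H2-Q7-206 6.69, 16.6 and 17.1 TPM. These genes are closely related copies, and how reads were divided among them is uncertain. Actg1-208, from the gene of gamma actin, had 15.1, 17.2 and 4.38 TPM in NK cells and at most 5.36 TPM elsewhere, beside a coding sum of 51.7 ± 18.2 TPM in NK cells and 623 ± 48.9 TPM in monocytes.

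In HSPCs, Prtn3-204 was the member most set apart from the other cell types of the rule. Prtn3 encodes a granule protease made by myeloid precursors. Prtn3-204 had 8.46, 16.3 and 12.3 TPM in HSPCs, 60.2, 92.1 and 55.4 TPM in monocytes and at most 0.208 TPM in the other 9 libraries, so that both bone marrow cell types were above all spleen libraries. In rescaled TPM, Prtn3-204 had 142 ± 42.6 in monocytes and 110 ± 15.2 in HSPCs, within their spread, so the gap between them depended on the scale. The coding sum had the same order in deposited TPM, 217 ± 54.5 TPM in monocytes and 31.3 ± 10.7 TPM in HSPCs. Its log2 difference from the average of the other cell types was then 6.04 in monocytes and 2.56 in HSPCs. In rescaled TPM these were 5.92 and 5.09, so the size of the coding gap depended on the scale too. Neutrophil markers, at 1361 to 1469 TPM in monocytes and 10.7 to 52.5 TPM in HSPCs, were present beside these values. Their part was not tested. Nucb1-203, from the gene of a calcium-binding Golgi protein, had 4.70, 9.51 and 9.39 TPM in HSPCs, 4.52, 10.5 and 9.01 TPM in NK cells and 9.88, 18.6 and 15.5 TPM in monocytes. Hsp90aa1-205, from the gene of a stress-inducible chaperone, had 4.57, 6.19 and 6.11 TPM in HSPCs and 1.85, 10.1 and 7.92 TPM in B cells. In rescaled TPM, HSPCs had the highest mean of the 5 cell types for Nucb1-203 (70.3 ± 17.01 against 30.1 ± 9.47 in monocytes) and Hsp90aa1-205 (51.3 ± 4.42 against 25.2 ± 15.8 in B cells), as well as for Ppia-203, Btf3-203, Eif4a2-219, Cdk4-209 and Caprin1-213. In deposited TPM this held for 0 members.

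The rule did not use levels in monocytes, only the listing of a transcript there. In all 3 monocyte libraries 17 members were above 10 TPM, against 0.579% of the 19675 retained_intron transcripts, and 28 were above it in at least 1, against 1.44%. Of the 100 retained_intron transcripts with the highest mean in monocytes, 16 were members. Ppia-203, from the gene of the peptidyl-prolyl isomerase cyclophilin A, ranked first with 154, 204 and 224 TPM, and its lowest value in the other cell types was 31.5 TPM. Ppia has many processed copies in the genome, so the division of its reads is uncertain. Ly6e encodes a lipid-anchored protein of the cell membrane. Ly6e-207 had 179.8, 197 and 196 TPM in monocytes, 59.0, 44.1 and 32.2 TPM in B cells, 8.76, 12.7 and 10.97 TPM in HSPCs, 4.84, 10.5 and 19.4 TPM in NK cells and 0.740, 2.55 and 3.44 TPM in T cells. Another retained-intron transcript of the gene, Ly6e-203, had its highest mean in B cells (7.05, 29.8 and 23.2 TPM) and had 0, 6.01 and 1.33e-07 TPM in monocytes. Ly6e-203 is named after its values were seen.

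Rpsa, which encodes a small-subunit protein also known as a laminin receptor, gave a pair of members with different orders across cell types. Rpsa-202, which starts inside an intron, had 99.3, 111 and 96.2 TPM in monocytes, 39.3, 39.9 and 33.9 TPM in B cells, 7.92, 7.36 and 7.32 TPM in HSPCs, 2.96, 6.66 and 16.5 TPM in NK cells and 0.585, 1.19 and 1.25 TPM in T cells. The coding sum had 13.3, 17.1 and 11.2 TPM in monocytes and 19.1, 45.3 and 37.9 TPM in T cells. Rpsa-203 was high in B cell replicates 2 and 3 and at most 3.84 TPM in monocytes. Gm43305-201, a single-exon transcript of 4901 bases at chr14:54292443-54297343 on the minus strand, had 82.3, 101 and 71.3 TPM in monocytes and 32.3, 42.3 and 43.8 TPM in B cells, and 2.000 to 5.32 TPM in T cells and HSPCs. Nfkbia encodes the inhibitor that holds NF-kappaB in the cytoplasm. Nfkbia-202 had 58.6, 35.99 and 44.6 TPM in monocytes, 8.18, 25.8 and 29.8 TPM in NK cells and 14.9, 19.0 and 18.6 TPM in B cells, and exceeded its coding sum in all 5 cell types on average. Pabpc1-204, from the gene of the poly(A)-binding protein, had 40.2, 46.8 and 67.0 TPM in monocytes, and Prdx1-206, from a peroxiredoxin gene, 39.3, 40.7 and 62.2 TPM. Both had all 3 monocyte libraries above the other 12. Cd74-204 and H2-Ab1-204 were listed at 0 in all 3 monocyte libraries.

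Set against the coding partner within each library, a scale-free comparison, the median retained share of the 48 members was 46.1% in T cells, 43.1% in B cells, 34.9% in NK cells, 29.8% in HSPCs and 9.40% in monocytes. For 1003 other retained_intron transcripts with a partner and a mean of at least 1 TPM, the medians were 33.2%, 22.5%, 28.0%, 23.4% and 21.3%. That mean was taken over all 5 cell types, and coding sums were mostly highest in monocytes, whereas members were chosen in the other 4, so the choice of both sets fixes part of these differences. Mean levels exceeded the coding partner for 23 members in T cells, 21 in B cells, 19 in NK cells, 13 in HSPCs and 5 in monocytes. Of the others, 29.5%, 22.8%, 24.2%, 17.8% and 14.1% did so. In each of the 15 libraries the same 3 members, Ppia-203, Ttyh1-210 and Nfkbia-202, exceeded their partner, and 8 members did so in 0 libraries. The cell type with the highest mean was the same for member and partner in 21 of 48 cases, against 91.4% of the 1003 others, which the same choice partly sets. Among the 4 cell types of the rule alone it was the same for 32 of 48, against 55.5% of the others. The coding sum was highest in monocytes for 37 of the 43 partner genes.

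**Figure D4:**
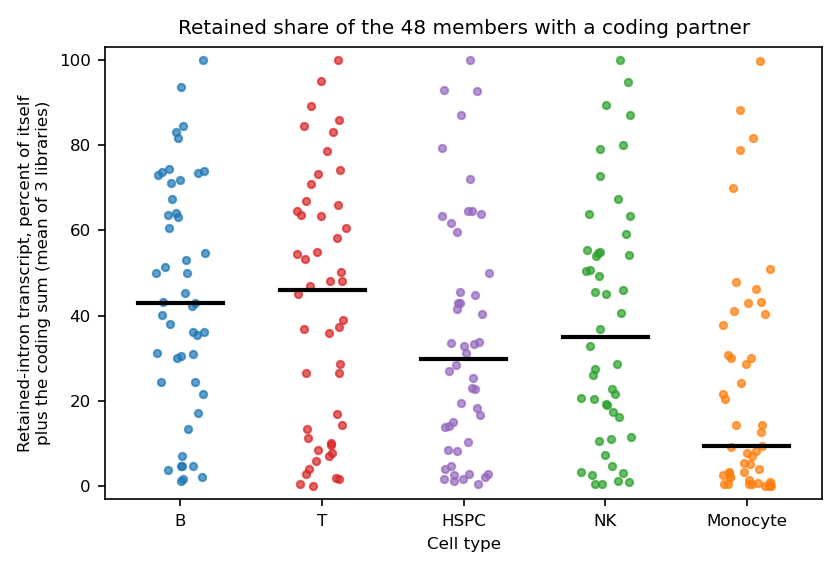
Retained share, the TPM of a member as a percentage of member plus coding sum, averaged over 3 libraries, for 48 members (points) in 5 cell types, with a line at the median. Shares run from near 0% to near 100% in every cell type, and the median is 46.1% in T cells and 9.40% in monocytes.

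The mean retained share of each member was compared between cell types. Only cell types in which member and coding sum together averaged at least 1 TPM were compared, 2 to 5 for each member. Between the lowest and the highest mean share among them, the spread was 35.1 percentage points at the median (0.350 to 85.2), was 50 points or more for 12 members and under 25 points for 16. The share was lowest in monocytes for 31 members, and highest in B cells for 23 and in T cells for 14. Members were chosen by their levels outside monocytes, and most passed the rule in B cells, so the choice partly sets these counts. Matching counts of spread and cell type are not given for other retained_intron transcripts. The libraries of the lowest and the highest cell type did not overlap for 37 of the 48 members, against 76.3% of 930 other retained_intron transcripts compared in the same way. They overlapped for 11, among them Rpsa-203, with 53.1% ± 45.8 in B cells, which is 1 of the 12 with a spread of 50 points or more. The widest was Rpsa-202, from 2.90% ± 0.321 (SD, n = 3) in T cells to 88.1% ± 1.48 in monocytes. In the opposite direction, Btf3-203, from a gene of a transcription and nascent-chain factor, went from 12.8% ± 7.39 in monocytes to 86.0% ± 5.79 in T cells. Rplp2-206 went from 1.80% ± 0.991 in B cells to 74.3% ± 3.82 in T cells, Coro1a-204 from 1.5% ± 0.496 in monocytes to 66.0% ± 4.23 in T cells and Rpl4-203 from 7.07% ± 3.42 in B cells to 63.3% ± 12.4 in T cells. Ppia-203 stayed high throughout, from 78.8% ± 6.43 in monocytes to 93.6% ± 4.62 in B cells. Btf3-203 is named after its values were seen, and 131 bases of it overlap Gm9828 on the opposite strand. Whether the counting used strand is not given, so reads of this pair cannot be told apart.

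The coding sums of the member genes, which are not independent of the members since shared reads are divided between both, were tested with limma across 5495 genes, setting 1 cell type at a time against the average of the remaining 4, on log2(TPM + 1), with Benjamini-Hochberg adjustment. Of the 43 partner genes 40 could be tested, and H2-Ob, Ms4a4b and Ttyh1 were below the filter on low values. A change is given as a log2 difference ± standard error (n = 3 libraries against 12), which understates changes of low genes. Higher in B cells were 10 partners, where 8.68% of all genes were, and lower were 9, where 54.1% were. Without the monocyte libraries, over the same genes, 21 were higher and 3 lower, where 34.9% and 8.84% of all genes were, so this balance depended on the cell types compared. Without B cell replicate 1 or replicate 2 the number of higher partners was 6. Cd74 rose by 5.98 ± 0.28 (adjusted p = 2.19e-19) and H2-Ab1 by 5.55 ± 0.22 (adjusted p = 2.80e-21) in B cells. Coro1a, Ptpn6, Sorl1, a sorting receptor gene, and Atp2a3 rose by 1.68, 1.62, 1.32 and 0.97, and Ly6e and Rplp2 by 0.74 and 0.73, the last 2 with adjusted p of 0.0424 and 0.0381 that were lost under other settings. The coding sum of Rpl19 did not pass the test in B cells (log2 difference 0.53, adjusted p = 0.136). Its retained-intron transcript met the rule through B cells alone, and was lowest there in replicate 1. That level chose the transcript and was not tested, so no contrast with the coding sum is drawn from this test.

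In T cells 36 of the 40 partners were lower, where 95.7% of all genes were, and 1 was higher, where 0.874% were. The exception was H2-Q7, which rose by 1.03 ± 0.24 (adjusted p = 0.000176). The tested partners of members highest in T cells fell there. Rplp2 fell by 1.64 ± 0.31 (adjusted p = 7.01e-06) and Coro1a by 1.49 ± 0.33 (adjusted p = 6.60e-05). For Rpl4 the log2 difference was -1.42 ± 0.33 (adjusted p = 0.000134). Ms4a4b and Ttyh1, also partners of such members, were below the filter. In rescaled TPM with the filter applied anew, Ms4a4b was higher in T cells (log2 difference 0.46, limma adjusted p = 0.0260). In monocytes 36 partners were higher, where 98.1% of all genes were, and 4 lower, where 1.16% were. Coro1a rose by 3.77 ± 0.33 (adjusted p = 1.81e-13), Rplp2 by 2.31 ± 0.31 (adjusted p = 7.46e-09) and Ppia by 2.92 ± 0.30 (adjusted p = 1.26e-11). H2-Ab1 fell by 0.78, Rpsa by 0.80 (adjusted p = 0.0464) and H2-Q7 by 0.67 in monocytes, and these 3 calls were lost under 1 or more other settings. Over all 5495 genes the median log2 difference was 2.76 in monocytes and -1.17 in T cells, and the medians of the 40 partners were 2.80 and -1.53. The partner genes in these lists are named after their values were seen.

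In HSPCs 26 partners were lower, where 83.2% of all genes were, and 1 was higher, where 1.93% were, but with rescaled TPM of the same 5495 genes 18 were higher and 7 lower, where 44.4% and 10.2% of all genes were, so the direction of these calls depended on the scale. Prtn3 was the gene higher in deposited TPM with monocytes included, by 2.56 ± 0.24 (adjusted p = 1.69e-10). Without the monocyte libraries, over the same genes, 4 partners were higher in HSPCs and 14 lower, where 11.9% and 17.8% of all genes were. In NK cells 4 partners were higher, where 3.06% of all genes were, and 9 lower, where 53.7% were. Without the monocyte libraries the balance turned, with 7 higher and 1 lower, where 19.8% and 0.928% of all genes were. In rescaled TPM of the same genes 20 were lower, where 60.4% of all genes were. With pseudocount 0.1, 3 were lower, and no share of all genes is given for that fit. Between 4 and 18 partners were lower when single libraries were left out (4 without NK replicate 1, 17 without T replicate 1 and 18 without NK replicate 3). Cd74 rose by 2.34 (adjusted p = 3.00e-08), H2-Ab1 by 2.01 (adjusted p = 8.42e-09), H2-Q7 by 1.34 (adjusted p = 4.82e-05) and Nfkbia by 0.68 (adjusted p = 0.0176), and the call of Nfkbia was lost under some settings. Rescaling moved the median over these 5495 genes from -0.77 to 0.46 in HSPCs, from 2.76 to 2.41 in monocytes, from -1.17 to -1.99 in T cells, from -0.43 to -0.29 in B cells and from -0.42 to -0.65 in NK cells. The medians of the 40 partners after rescaling were 0.61, 2.05, -2.25, 0.21 and -0.70.

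The share of retained_intron TPM in all TPM of retained_intron and coding transcripts, over the 8183 genes that have both, does not depend on the choice of members. It was 26.7%, 27.0% and 25.0% in the T cell libraries and 25.7%, 24.4% and 23.5% in NK cells. Lower shares were found in B cells (15.8%, 21.8% and 20.3%), HSPCs (20.5%, 17.6% and 18.4%) and monocytes (16.2%, 16.6% and 15.6%). Each cell type was compared with the other 4 on the log2 scale of the share in an exact two-sided permutation test, with 455 possible choices of 3 libraries. T cells were higher by 0.43 (26.2% ± 1.09, adjusted p = 0.0275) and monocytes lower by 0.44 (16.1% ± 0.544, adjusted p = 0.0275), adjusted over 5 tests. B cells (19.3% ± 3.11, exact test adjusted p = 0.490), HSPCs (18.8% ± 1.49, adjusted p = 0.475) and NK cells (24.5% ± 1.12, adjusted p = 0.168) did not pass. Without the members, the differences were 0.36 in T cells and -0.31 in monocytes and both missed the threshold (exact test adjusted p = 0.121). Without the monocyte libraries the T cell difference was 0.35 (exact test adjusted p = 0.145). With the replicate number as a block, the T cell and monocyte differences missed the threshold too (permutation test adjusted p = 0.06). Leaving out single libraries gave adjusted p from 0.0137 to 0.0824 for both calls, and B cell replicate 1 set the direction of the B cell difference, which was 0.00141 without it.

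**Figure D5:**
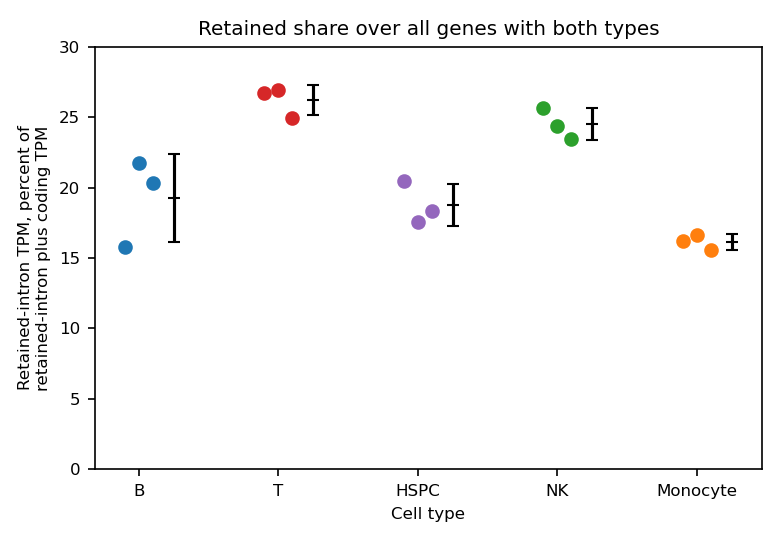
Retained_intron TPM as a percentage of retained_intron plus coding TPM over 8183 genes, with each library as a point and the mean ± SD of 3 libraries per cell type. The T cell libraries (25.0% to 27.0%) and NK cell libraries (23.5% to 25.7%) lie above all B cell, HSPC and monocyte libraries (15.6% to 21.8%).

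Which kinds of genes the members come from was described with 3 lists. Genes of ribosomal proteins held 10 members among 170 retained_intron transcripts (5.88%) and snoRNA hosts held 9 among 247 (3.64%), against 0.259% of all 19675. Genes of splicing regulators, known for introns that stay in the nucleus, held 0 members among 168 retained_intron transcripts. The 10 members of ribosomal protein genes summed to 186 ± 73.6 TPM in B cells, 169 ± 6.26 TPM in monocytes, 113 ± 31.5 TPM in T cells, 67.2 ± 22.3 TPM in NK cells and 29.98 ± 4.97 TPM in HSPCs. On the rescaled TPM scale it was 276 ± 52.6 in HSPCs, 716 ± 289 in B cells, 345 ± 14.5 in monocytes, 285 ± 71.7 in T cells and 203 ± 70.8 in NK cells, and NK cells were then lowest. Ribosomal protein genes have many processed copies, so the division of their reads is uncertain.

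A further 9 wild type libraries hold total RNA from peripheral blood mononuclear cells (PBMCs), 3 each in groups called ct, WT and Y, and the labels give no meaning for these names. These gene-level counts of 4686387 to 9055761 per library do not separate a retained-intron transcript from the coding transcripts of its gene. All 46 member genes are listed. Snhg1 was the highest of them, with 670 ± 119 TPM in ct, 639 ± 91.3 TPM in WT and 765 ± 77.7 TPM in Y, followed by Eif4a2 with 445 ± 77, 396 ± 60.5 and 471 ± 35.2 TPM. Both hold a whole snoRNA in their surface member. Prtn3 and Gm43305 were at most at 0.11 TPM in the mean of a group. With edgeR's quasi-likelihood test over 11635 genes, of the 44 member genes tested 2 were higher in WT than in ct, where 0.765% of all genes were, and 1 was lower, where 1.6% were. Nfkbia rose by 0.42 on the log2 scale (edgeR adjusted p = 0.00806), from 24.9 ± 2.12 TPM in ct to 31.8 ± 4.45 TPM in WT, H2-Q5 rose by 0.59 (adjusted p = 0.0484) and Atp2a3 fell by 0.37 (adjusted p = 0.0467). Leaving out single PBMC libraries ended the H2-Q5 call in 6 of 9 fits (edgeR adjusted p up to 0.202) and the Atp2a3 call in 7 of 9 (up to 0.250). Between Y and ct edgeR called 0 member genes higher, where 0.266% of all genes were, and 0 lower, where 0.438% were. DESeq2 called 0 as well. With single PBMC libraries left out, 0 to 4 were higher in Y than in ct (4 without ct replicate 3). Between Y and WT, 0 were higher, where 0.438% of all genes were, and 2 lower, where 0.817% were. These were Nfkbia, which fell by 0.73 (edgeR adjusted p = 0.000142) to 17.2 ± 0.877 TPM in Y, and H2-Q7, which fell by 0.37 (adjusted p = 0.0375), a call lost in 6 of 9 such fits (edgeR adjusted p up to 0.175). The 3 contrasts share their groups, and genes called here other than Nfkbia are named after their values were seen.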

How the data were processed

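Surface RNA was measured in 15 murine libraries and total PBMC RNA in 9. For surface RNA the authors trimmed the reads, removed duplicates by barcode and deposited TPM per transcript estimated with Kallisto, without depth, so no counting interval is given. The mouse transcript set is not given in the sources used here. For PBMCs the authors deposited RSEM expected counts per gene, which were rounded, with 4686387 to 9055761 counts per library, beside TPM and FPKM, the latter deposited by the authors but not used. The submitters' notes name mm10, cutadapt, STAR and featureCounts as well.

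All 51 members were matched by transcript ID, without version, to GENCODE M21 (GRCm38), and 0 of 51 had the same version. The members and gene lists were chosen with earlier results of these data known. Members named in the text were the 15 with the highest mean over cell types, the 3 most set apart in each cell type and members of the 3 gene lists. Results of 2 members are not reported here, though they stay in counts, summed levels and medians over all members. Coding sums with a mean log2(TPM + 1) of at least 1 were fitted with limma 3.58.1, expected counts with edgeR 4.0.16 and DESeq2 1.42.0 (R 4.3.3), and calls had adjusted p below 0.05. Both fits were tested on simulated data. Tests crossed tables that were normalized separately, library by library. Shares were compared in Python 3.11.15.

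Alternatives were pseudocount 0.1, no filter, rescaled TPM, single libraries or monocytes left out and the replicate number as a block, with the filter on low values applied anew in each fit unless the same genes are named.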

Additional observations from a re-analysis of the deposited data

How the results depend on the processing

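The number of members was 139 above 5 TPM and 10 above 50 TPM, and 44 to 51 with single libraries left out. The retained_intron share differed by 0.36 in T cells and -0.31 in monocytes without the members (both adjusted p = 0.121), and by 0.35 in T cells without the monocyte libraries (exact permutation test, adjusted p = 0.145). With single libraries left out it ranged from 0.41 to 0.47 in T cells and from -0.48 to -0.41 in monocytes (adjusted p 0.0137 to 0.0824). The T cell call was lost without T replicate 1 or 2, B replicate 1, HSPC replicate 3 or any monocyte library, and the monocyte call without T replicate 1 or 2 or any monocyte library. The B cell difference ranged from -0.23 to 0.00141 and turned positive without B replicate 1. The cause of these changes was not tested.

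With the replicate number as a block, the T cell (0.43) and monocyte (-0.44) differences had adjusted p = 0.06, and PBMC counts were 1 higher and 0 lower in WT than in ct and 1 lower in Y than in WT. No count of surface partners moved by over 1.5 times with the block, and the labels give same-numbered libraries no shared source. Deviations of same-numbered libraries correlated at -0.266 to 0.425 for surface RNA and -0.0613 to 0.0594 for PBMCs, not above 0.1 in every pair, so the numbers were not taken to pair the samples.

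Without the monocyte libraries, higher partners numbered 21 in B cells, 4 in HSPCs and 7 in NK cells, and lower ones 3, 14 and 1. These counts were the same in a fit added after the data were seen that kept the 5495 genes of the deposited values. In the same order of cell types, 34.9%, 11.9% and 19.8% of these genes were higher and 8.84%, 17.8% and 0.928% lower. The filter on low values applied anew kept 2772 genes, of which 41.2%, 11.9% and 20.4% were higher and 8.26%, 25.2% and 1.05% lower. In rescaled TPM the filter applied anew kept 8975 genes and 42 partners. This fit gave 2 higher in T cells, 18 higher and 9 lower in HSPCs and 17 lower in NK cells. The matching shares of all 8975 genes were 0.702%, 40.8%, 10.3% and 57.6%. Over the same 5495 genes and 40 partners, likewise added, the counts were 1, 18, 7 and 20, where 0.637%, 44.4%, 10.2% and 60.4% of all genes were. Pseudocount 0.1 gave 3 lower in NK cells. With single libraries left out, 6 to 10 partners were higher in B cells, 1 to 2 higher in T cells (2 without B or T replicate 1), 4 to 18 lower in NK cells and 2 to 4 lower in monocytes (2 without B or monocyte replicate 1). Among PBMC genes, no filter gave 1 higher in Y than in ct and 3 higher in Y than in WT, and DESeq2 gave 1 higher in WT than in ct. With single PBMC libraries left out, 1 to 2 were higher and 0 to 1 lower in WT than in ct, 0 to 4 higher in Y than in ct (4 without ct replicate 3), and 0 to 1 higher and 1 to 2 lower in Y than in WT. The PBMC calls of H2-Q5, H2-Q7 and Atp2a3 were each lost under at least 1 setting, whereas those of Nfkbia were kept in every alternative run. In all, of the values computed under alternatives, 748 kept direction and side of the threshold or moved within the stated limits, 79 kept direction but lost the call, 57 moved further and 1 reversed. TPM keep no depth, so what depth limits in the surface libraries is unknown.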
